A study of Mus musculus with 15 samples.

Results

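The NRF2 antioxidant response was examined through 10 of the 34432 genes listed in the data: the transcription factor NRF2 (Nfe2l2), its inhibitor KEAP1 (Keap1) and 8 target genes (Hmox1, Nqo1, Gclc, Gclm, Txnrd1, Srxn1, Slc7a11 and G6pdx). They were chosen by symbol with earlier results of these data known, and each was present in both tables of normalized read counts. RNA-seq had been performed on CT26 cells, a mouse colon carcinoma line, in 5 groups of 3 biological replicates. In the first experiment, a stable line that expresses a hairpin against the arginine methyltransferase gene Prmt1 under doxycycline (shPrmt1, induced for 3 days) was set beside a control hairpin line (shControl). In the second, wild-type cells received vehicle or 6 μM of 1 of 2 PRMT1 inhibitors, MS023 or GSK3368715, for 48 h. The labels name 1 construct per hairpin group, and whether the shControl cells were given doxycycline is not given in the sources used here. The 2 experiments were normalized separately, so every treated group was tested against its own controls. No test was made across the experiments.

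NRF2 is a leucine zipper transcription factor that is made and destroyed continuously: KEAP1 binds it and hands it to a CUL3 ubiquitin ligase, and oxidants or electrophiles that modify KEAP1 cysteines let NRF2 accumulate. With a small MAF protein it binds the antioxidant response element, written here as TGAC, any 3 bases, then GC. Its targets make glutathione (Gclc, Gclm, Slc7a11), recycle thioredoxin and peroxiredoxin (Txnrd1, Srxn1), degrade heme and reduce quinones (Hmox1, Nqo1) and supply NADPH (G6pdx). Because that regulation acts on NRF2 protein, an mRNA level of Nfe2l2 does not measure NRF2 activity.

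The element was searched for, on both strands (TGACNNNGC or GCNNNGTCA) and as the only motif, in the RefSeq promoter windows of build GRCm38.p6, which run from 250 bases before a transcription start to 50 bases after it. Of the 10 members, 8 had a window and 5 of these 8 held a match, against 14% of the 27025 genes with a window. These are the stretches around the 5 matches, shown because they hold the letters of the element the group is named for. They are given on the strand of the gene from 5′ to 3′ with the match in capitals.
Nfe2l2: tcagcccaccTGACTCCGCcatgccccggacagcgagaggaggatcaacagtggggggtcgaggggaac
Gclm: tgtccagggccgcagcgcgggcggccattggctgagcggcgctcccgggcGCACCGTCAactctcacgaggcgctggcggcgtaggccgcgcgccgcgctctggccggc
Txnrd1: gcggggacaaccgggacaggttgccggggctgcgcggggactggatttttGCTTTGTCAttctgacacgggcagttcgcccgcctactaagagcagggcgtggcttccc
Srxn1: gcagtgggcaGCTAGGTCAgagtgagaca
G6pdx: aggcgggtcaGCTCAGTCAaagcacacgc
The Nfe2l2 stretch (chr2:75704845-75704913, minus strand) holds the match in the sense direction, 240 to 232 bases before the start. In Gclm (chr3:122245373-122245481, plus strand) the match is on the opposite strand, 134 to 126 bases before the start. The Txnrd1 match (chr10:82859064-82859172, plus strand), also on the opposite strand, lies in 1 of 3 windows of that gene, 92 to 84 bases before its start. Srxn1 (chr2:152105542-152105570, plus strand) has its opposite-strand match 28 to 36 bases after the start, and G6pdx (chrX:74428919-74428947, minus strand) 57 to 49 bases before it. Keap1, Nqo1 and Slc7a11 had windows in which these letters do not occur, and Hmox1 and Gclc had none. A match describes the sequence only, and no binding was measured. Sequence outside the windows was not searched, so the lack of a match does not mean that a gene lacks the element.

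Reads assigned to genes ranged from 17284091 to 29233738 per library in the knockdown experiment and from 40119305 to 93697833 in the inhibitor experiment. Prmt1 itself stood at 5601, 5717 and 5620.1 normalized counts in shControl cells against 669, 761 and 683 after knockdown, a ratio of the means of 0.125 (limma adjusted p = 3.8e-07). Prmt1 mRNA was not called with either inhibitor (log2 fold change -0.07 for MS023 and -0.01 for GSK3368715, adjusted p = 0.351 and 0.914). Of 7 markers of colon epithelium and carcinoma, Epcam was at 0 in all 15 libraries while Krt18 and Krt20 were present in each. Cdh1 and Vil1 had group means of at most 1.48 and 1.27 normalized counts. Those of Krt8 were 4.12 to 23.98 and those of Cdx2 4.84 to 16.85. Krt18 (group means 431 to 1372) and Krt20 (173 to 405) therefore made up most of the sum of the 7. The summed level of these 7 markers was 724 to 810.0 normalized counts in shControl, 541 to 659.6 in shPrmt1, 1243 to 1412 in vehicle, 1758 to 1851 with MS023 and 1406 to 1591 with GSK3368715. The summed level of 5 leukocyte markers stayed between 2.04 and 29.99 normalized counts in every library. That of 4 mesenchymal markers lay between 89489 and 108240 in the knockdown experiment and between 303900 and 347029 in the inhibitor experiment. Of these 4, Col1a1 and Pdgfrb were called higher in shPrmt1, Pdgfrb higher and Col1a1 and Col1a2 lower with MS023, and Pdgfrb higher with GSK3368715. Of the epithelial markers tested, 1 of 2 was called lower in shPrmt1. With MS023 2 of 4 were higher, and with GSK3368715 1 of 4. Among all genes tested, 7.5% were called higher and 7.17% lower in shPrmt1, against 13.7% and 14.1% with MS023 and 5.16% and 4.47% with GSK3368715. The part of these marker differences in the results was not tested. The second shPrmt1 library stood apart from the other knockdown libraries, with a root mean square deviation from its group mean of 0.286 on the log2 scale against 0.194 to 0.227.

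Per kilobase of merged exon, the vehicle cells carried most G6pdx (3128 ± 49.1 normalized counts per kb, SD, n = 3), then Hmox1 (2715 ± 107), Nfe2l2 (2231 ± 107), Srxn1 (1699.8 ± 102) and Txnrd1 (1658 ± 6.001). Srxn1 and Txnrd1 lay within their spread of each other. Gclm (1184 ± 90.8), Gclc (936 ± 37.1) and Keap1 (726 ± 10.5) followed, and Slc7a11 (255 ± 30.1) and Nqo1 (78.4 ± 5.70) were the lowest. In shControl G6pdx was again highest (1166 ± 39.7) and Nqo1 lowest (13.4 ± 1.47), with Srxn1 (733.9 ± 9.70) and Hmox1 (719 ± 21.9) next to each other within their spread, as were Txnrd1 (672 ± 23.5) and Nfe2l2 (662 ± 23.2). Gclm (574 ± 42.3), Gclc (380.1 ± 6.91), Keap1 (241 ± 0.941) and Slc7a11 (59.1 ± 5.79) lay between these and Nqo1. These levels rest on annotated lengths and are not compared between experiments.

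Called changes were most numerous with MS023, and Nfe2l2 mRNA itself was not called against either control. MS023 raised 6 members and lowered 2, an 8 of 10 call rate where 27.9% of the 13014 genes tested were called. Since the members were chosen with earlier results of these data known, such shares describe them and are no independent test. The knockdown raised 3 (Txnrd1, Hmox1, Gclc) and lowered 1 (Keap1), 4 of 10 against 14.7% of 11485 genes. GSK3368715 raised 2 (Nqo1, G6pdx), 2 of 10 against 9.64% of 13014 genes, and limma called none lower (2 at an unadjusted p under 0.05, 0 by edgeR and 1 by DESeq2). A gene was called where limma on log2(normalized count + 1) gave a Benjamini-Hochberg adjusted p under 0.05 over all genes tested, and all 10 members passed the filter of at least 10 normalized counts in 3 libraries in both experiments. Median log2 fold changes of the 10 members were 0.11 in shPrmt1, 0.33 with MS023 and 0.12 with GSK3368715, where the medians of all genes tested were -0.004, 0.003 and 0.0004. Treated and control libraries did not overlap for 7 members in the knockdown (5 above and 2 below the controls), against 38% of all genes (19.2% above and 18.9% below). With MS023 this held for 8 members (6 above, 2 below) and 44.5% of genes (22.4% and 22.1%), and with GSK3368715 for 6 members (4 above, 2 below) and 27.7% of genes (13.7% and 14.1%). The 4 knockdown calls came down to 1 without any 1 shControl library and to 2 without shPrmt1 1, and the 2 GSK3368715 calls to 0 without vehicle 3 or GSK3368715 2 and to 1 without vehicle 1 or GSK3368715 1 or 3. Both inhibitor comparisons use the same 3 vehicle libraries. These are bulk samples, in which a change in the makeup of the cells and a change in RNA per cell cannot be told apart.

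**Figure D1:**
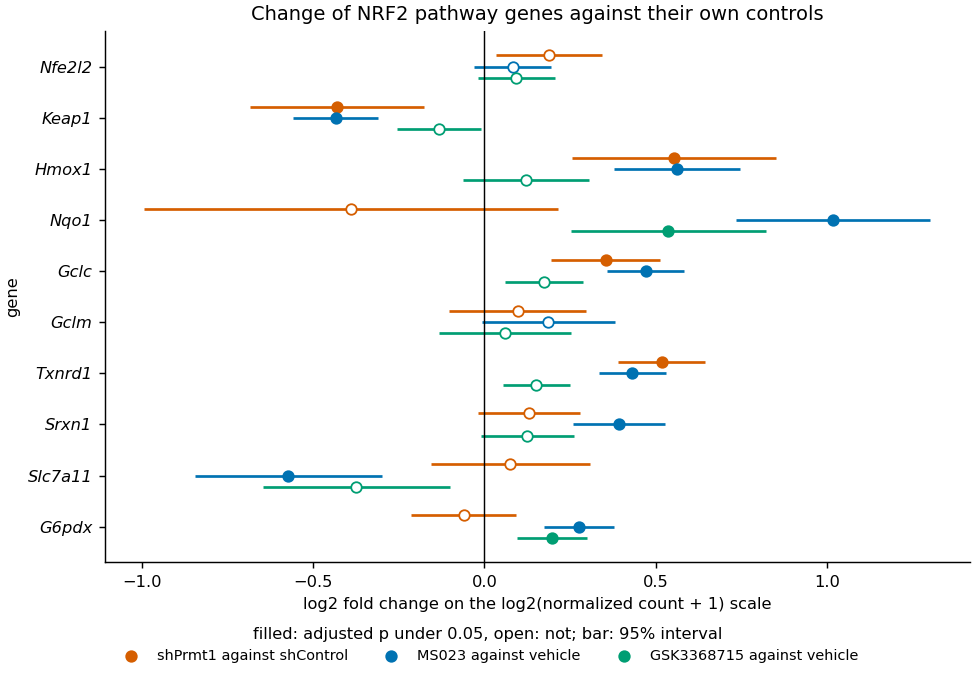
Log2 fold change (horizontal axis, log2(normalized count + 1) scale) of each of the 10 genes (vertical axis) in shPrmt1 against shControl (orange), MS023 against vehicle (blue) and GSK3368715 against vehicle (green), with bars for the 95% interval and filled points where the adjusted p was under 0.05. Filled points number 4 in the knockdown, 8 with MS023 and 2 with GSK3368715, and Nqo1 has the highest value with both inhibitors while its knockdown point lies below 0.

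Keap1 (chr9:21229730-21239361, minus strand, in mm10 with GENCODE M21, as for each gene here), whose product holds NRF2 down, was the member lowered in both the knockdown and the MS023 cells. Its normalized counts were 1134, 1126 and 1127 in shControl and 894, 697 and 941 in shPrmt1. The 3 control libraries lay close together and all 3 knockdown libraries lay below them, the second being the lowest. The log2 fold change was -0.43 (SE 0.11, 95% interval -0.69 to -0.18, limma adjusted p = 0.037). With vehicle Keap1 read 3353, 3418 and 3450.3, with MS023 2351, 2605 and 2612, and with GSK3368715 3154, 3105 and 3059. All treated libraries were below all vehicle libraries, and the MS023 libraries lay lowest. Against vehicle, MS023 gave -0.44 (SE 0.06, adjusted p = 4.0e-04), and GSK3368715 gave -0.13 (95% interval -0.26 to -0.01, adjusted p = 0.160), which did not pass. The knockdown call was lost without any 1 of shControl 1, 2 or 3 (adjusted p = 0.121, 0.101 and 0.111) or shPrmt1 1 (0.053). In the annotation 510 bp of Keap1 exon overlap the opposite-strand gene Gm16754, which has no value here.

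Nfe2l2 mRNA (chr2:75675513-75704641, minus strand) did not pass the test in any comparison. It read 2466, 2614 and 2458 in shControl and 2741, 3076 and 2778 in shPrmt1, so that the groups did not overlap. The log2 fold change of 0.19 (SE 0.07, 95% interval 0.03 to 0.34) had an adjusted p of 0.101. Of the 16 alternative analyses of the knockdown, 1 called it, the replicate block (limma adjusted p = 0.041). Vehicle cells read 8904, 8104 and 8396, MS023 cells 9033, 9026 and 8819, and GSK3368715 cells 8664, 9239 and 9177, with the first vehicle library inside the range of both treated groups. The intervals of the inhibitor effects ran from -0.03 to 0.20 for MS023 and from -0.02 to 0.21 for GSK3368715.

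The glutathione genes divided. Gclc (chr9:77754535-77794485, plus strand), the catalytic subunit of glutamate-cysteine ligase, the rate-limiting enzyme of glutathione synthesis, read 1403, 1439 and 1453 in shControl and 1756, 1973 and 1767 in shPrmt1. Every knockdown library was above every control library, by a log2 fold change of 0.35 (SE 0.07, adjusted p = 0.013). Leaving out shControl 1, 2 or 3 took the adjusted p to 0.072, 0.0502 or 0.057 and ended that call. Vehicle cells read 3467, 3425 and 3685 for Gclc, MS023 cells 5015, 4853 and 4791, and GSK3368715 cells 4077, 3985 and 3868. The 3 groups formed 3 separate ranges, with GSK3368715 in the middle. MS023 raised Gclc by 0.47 on the log2 scale (SE 0.05, adjusted p = 1.6e-04), and the GSK3368715 value of 0.17 (95% interval 0.06 to 0.29) had an adjusted p of 0.057.

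Gclm (chr3:122245557-122270732, plus strand), the modifier subunit that makes the ligase more efficient, was not called. It read 3589, 3891 and 3360.1 in shControl and 3684, 4322 and 3608 in shPrmt1, which overlap. In the inhibitor experiment it read 7232, 8096 and 7015 with vehicle, 9705, 8192 and 7614 with MS023, and 7657, 7461 and 8130.2 with GSK3368715. One MS023 library exceeded the rest and the others lay near the vehicle range. The log2 fold changes were 0.10 (95% interval -0.10 to 0.30) for the knockdown, 0.19 (-0.01 to 0.38) for MS023 and 0.06 (-0.13 to 0.25) for GSK3368715, with adjusted p-values of 0.484, 0.137 and 0.723. Gclm shares 244 bp of exon with the same-strand gene Gm6061, which reached at most 26.2 normalized counts.

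Slc7a11 (chr3:49892526-50443614, minus strand) encodes the cystine carrier of system xc-, which brings in the cysteine that limits glutathione synthesis and is also a target of ATF4. It went the other way from Gclc under MS023. Vehicle libraries read 3298, 3321 and 4035, MS023 libraries 2019, 2613 and 2545, and GSK3368715 libraries 2342, 2994 and 2891. Every treated library lay below every vehicle library, and the first of each treated group was its lowest. MS023 lowered it by a log2 fold change of -0.57 (SE 0.12, 95% interval -0.85 to -0.30, adjusted p = 0.0066). With GSK3368715 the value was -0.37 (SE 0.12, 95% interval -0.65 to -0.10), and the adjusted p of 0.083 did not pass. In the knockdown experiment the 830.2, 899 and 739 normalized counts of shControl and the 841, 958 and 801 of shPrmt1 overlapped (log2 fold change 0.08, 95% interval -0.16 to 0.31, adjusted p = 0.642).

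Txnrd1 (chr10:82833951-82897712, plus strand), the cytosolic thioredoxin reductase, was raised in both the knockdown and the MS023 cells. It read 4588, 4919 and 4784 in shControl and 6813, 6957 and 6682 in shPrmt1, without overlap. The log2 fold change was 0.52 (SE 0.06, 95% interval 0.39 to 0.64, adjusted p = 8.2e-04), and among the 4 knockdown calls this was the one kept in all 16 alternative analyses. Vehicle libraries read 11792, 11742 and 11708, MS023 libraries 16375, 15474 and 15707, and GSK3368715 libraries 13262, 12759 and 13136. The 3 groups were again separate, with GSK3368715 between the others. MS023 raised Txnrd1 by 0.43 (SE 0.04, adjusted p = 1.3e-04), and GSK3368715 gave 0.15 (95% interval 0.05 to 0.25, adjusted p = 0.056).

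Srxn1 (chr2:152105516-152111376, plus strand), the sulfiredoxin that restores overoxidized peroxiredoxins, was raised by MS023. It read 4659.9, 5123 and 4597 with vehicle, 6406, 6132 and 6326 with MS023, and 5388, 4868 and 5425 with GSK3368715. All MS023 libraries were above all others, and the second GSK3368715 library lay inside the vehicle range. The log2 fold changes were 0.39 for MS023 (SE 0.06, adjusted p = 0.0012) and 0.12 for GSK3368715 (95% interval -0.01 to 0.26, adjusted p = 0.229). In shControl it read 2091, 2079 and 2039 and in shPrmt1 2305, 2125 and 2378, which did not overlap, and the log2 fold change of 0.13 (95% interval -0.02 to 0.28, adjusted p = 0.2095) did not pass. Without shPrmt1 2 it passed, at 0.18 (adjusted p = 0.029).

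Hmox1 (chr8:75093621-75100589, plus strand), the heme oxygenase that opens heme to biliverdin, carbon monoxide and iron, was raised in the knockdown and the MS023 cells. It read 1304, 1237 and 1238 in shControl and 2131, 1469 and 2018 in shPrmt1. All knockdown libraries were above the controls, with the second far below the other two. The log2 fold change was 0.55 (SE 0.13, 95% interval 0.26 to 0.85, adjusted p = 0.026). That call was lost without shControl 1 (adjusted p = 0.079), 2 (0.081) or 3 (0.0903), or without shPrmt1 1 (0.066) or 3 (0.077). With vehicle Hmox1 read 4959, 4595 and 4705, with MS023 6538, 6873 and 7688, and with GSK3368715 4689.5, 5058 and 5803. The MS023 libraries stood clear of the others, while the GSK3368715 libraries began inside the vehicle range. MS023 gave 0.56 (SE 0.08, adjusted p = 8.9e-04) and GSK3368715 0.12 (95% interval -0.06 to 0.30, adjusted p = 0.403).

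Nqo1 (chr8:107388225-107403206, minus strand), the quinone reductase, was the member with the largest change under both inhibitors. Vehicle cells read 114, 131 and 121 normalized counts, MS023 cells 259, 223 and 262, and GSK3368715 cells 168, 201 and 164. The groups did not overlap, and the GSK3368715 libraries lay between vehicle and MS023. The log2 fold changes were 1.02 with MS023 (SE 0.13, 95% interval 0.73 to 1.30, adjusted p = 3.7e-04) and 0.54 with GSK3368715 (SE 0.13, 95% interval 0.25 to 0.82, adjusted p = 0.026). The GSK3368715 call was lost without vehicle 1 (adjusted p = 0.063) or 3 (0.078), or without GSK3368715 1 (0.053) or 2 (0.077). In the knockdown experiment Nqo1 was scarce, at 18.5, 23.0 and 21.0 in shControl and 13.7, 17.0 and 16.3 in shPrmt1. Each knockdown library was below each control library, but the log2 fold change of -0.39 (SE 0.26) had a 95% interval from -0.99 to 0.21 and an adjusted p of 0.348.

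G6pdx (chrX:74409483-74429194, minus strand), glucose-6-phosphate dehydrogenase, the entry to the NADPH-producing pentose phosphate pathway, was raised by both inhibitors. It read 9764, 9671 and 9468 with vehicle, 11709, 11538 and 11743 with MS023, and 10651, 10938 and 11540.3 with GSK3368715. All treated libraries were above the vehicle libraries, and the third GSK3368715 library reached the MS023 range. The log2 fold changes were 0.28 (SE 0.05, adjusted p = 0.0018) for MS023 and 0.20 (SE 0.05, adjusted p = 0.025) for GSK3368715. The second of these was lost without vehicle 3 (adjusted p = 0.091) or GSK3368715 2 (0.0505) or 3 (0.0898). With 3700.4, 3459 and 3611 in shControl and 3536, 3198 and 3603 in shPrmt1, the knockdown groups overlapped (log2 fold change -0.06, 95% interval -0.21 to 0.09, adjusted p = 0.571). G6pdx shares 418 bp of exon with the opposite-strand gene Ikbkg, which was lower with MS023 (log2 fold change -0.25, adjusted p = 0.0082), and reads of the pair cannot be told apart if strand was not used in counting.

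**Figure D2:**
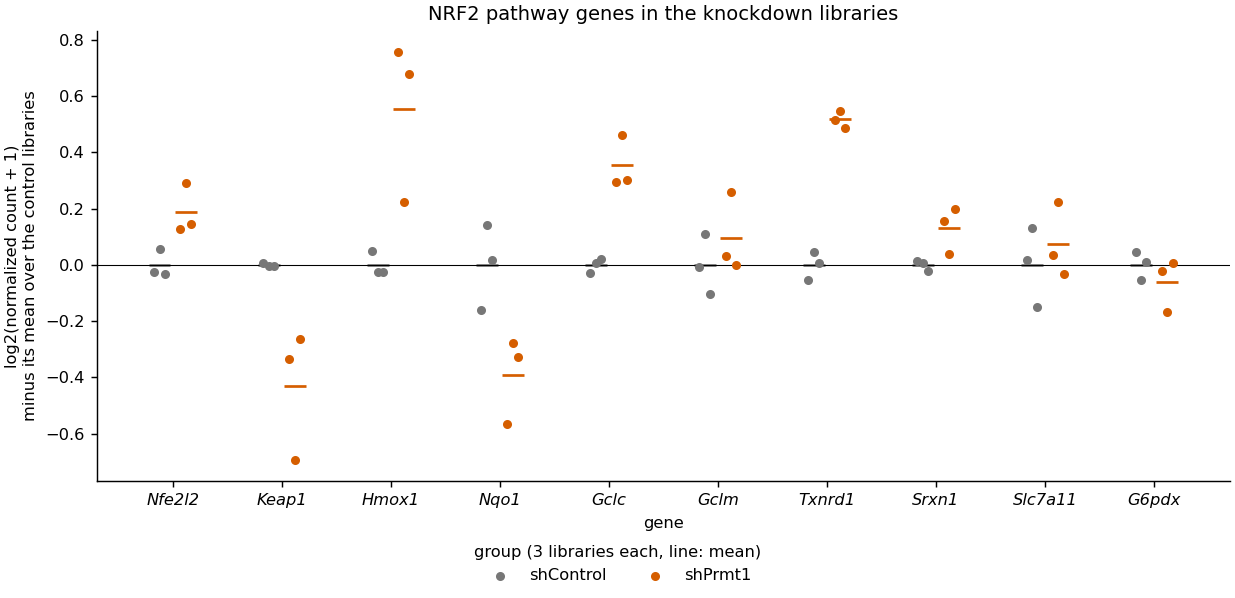
Level of each gene (horizontal axis) in every knockdown library, as log2(normalized count + 1) minus the mean of the shControl libraries (vertical axis), with 3 points and a line at the mean for shControl (grey) and shPrmt1 (orange). The shPrmt1 points of Txnrd1, Hmox1, Gclc, Nfe2l2 and Srxn1 lie above all control points, and those of Keap1 and Nqo1 lie below them. The second shPrmt1 library gives the low points of Hmox1 and Keap1.

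**Figure D3:**
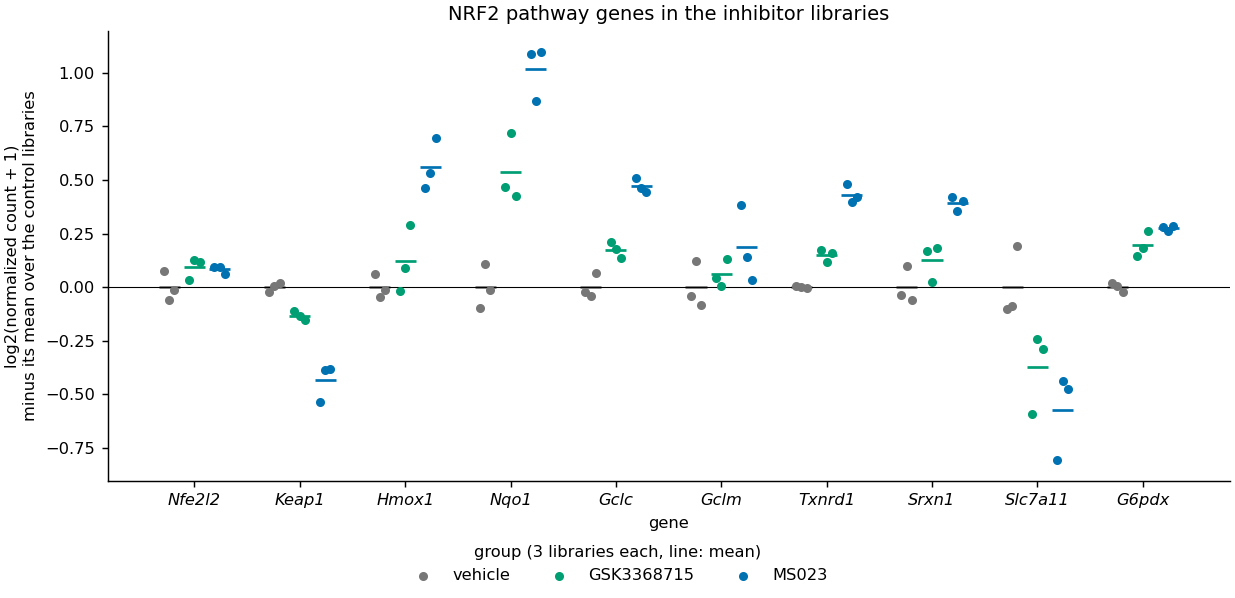
Level of each gene (horizontal axis) in every inhibitor library, as log2(normalized count + 1) minus the mean of the vehicle libraries (vertical axis), with 3 points and a line at the mean for vehicle (grey), GSK3368715 (green) and MS023 (blue). For Keap1, Nqo1, Gclc and Txnrd1 the 3 groups form separate ranges with GSK3368715 between vehicle and MS023.

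The inhibitors were given at the same dose for the same time, so levels of the members were compared directly in the same 9-library fit. How far each compound inhibited PRMT1 is not measured by these RNA data. Against vehicle, 9.64% of all genes tested were called with GSK3368715 and 27.9% with MS023. The part of this wider difference in the member differences was not tested. GSK3368715 cells held more Keap1 (log2 difference, GSK3368715 minus MS023, 0.30, 95% interval 0.18 to 0.42, adjusted p = 0.048) and less Gclc (-0.30, -0.41 to -0.18, adjusted p = 0.037) and Txnrd1 (-0.28, -0.38 to -0.18, adjusted p = 0.029) than MS023 cells. These 3 of 10 members were called where 0.515% of all genes were. Hmox1, Nqo1 and Srxn1 did not overlap between the compounds and were not called. Their differences were -0.44 (95% interval -0.63 to -0.26, adjusted p = 0.052), -0.48 (-0.77 to -0.20, adjusted p = 0.148) and -0.27 (-0.40 to -0.13, adjusted p = 0.096). In all, 6 members did not overlap, 1 higher and 5 lower with GSK3368715, against 21.4% of genes (11.4% higher and 9.95% lower). The intervals of the remaining members included 0, at -0.10 to 0.12 for Nfe2l2, -0.32 to 0.07 for Gclm, -0.07 to 0.47 for Slc7a11 and -0.18 to 0.02 for G6pdx, and so do not place the compounds at one level. The calls of Keap1, Gclc and Txnrd1 were each lost without vehicle 3 or without any 1 GSK3368715 or MS023 library, with adjusted p-values up to 0.173 for Keap1, 0.165 for Gclc and 0.142 for Txnrd1, while Hmox1 passed without vehicle 1 (0.0447) or 2 (0.0424).

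**Figure D4:**
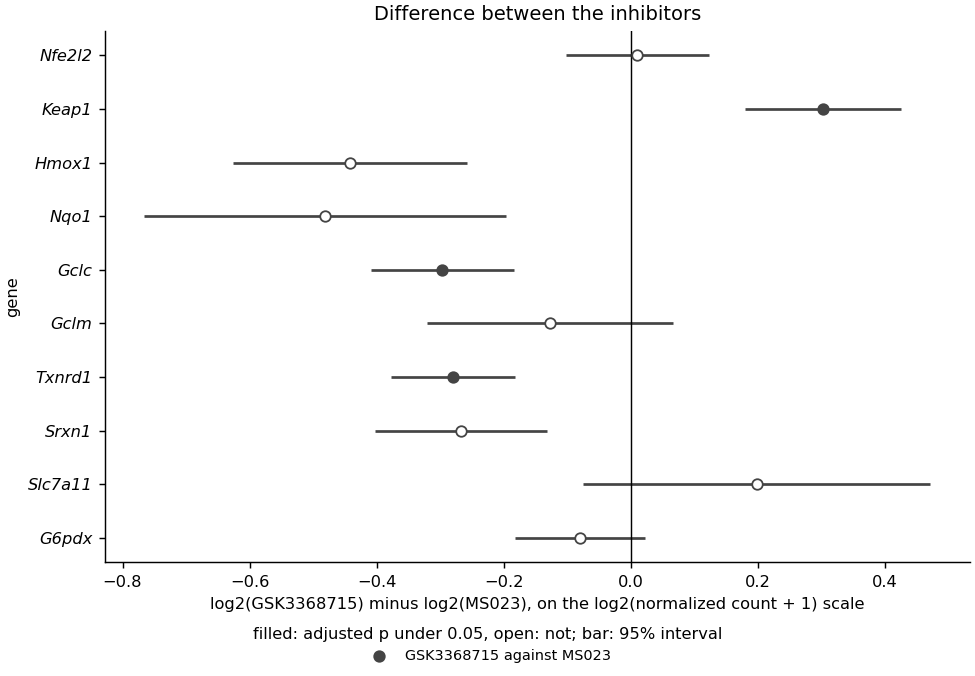
Difference between the inhibitors for each gene (vertical axis), as log2(GSK3368715) minus log2(MS023) on the log2(normalized count + 1) scale (horizontal axis), with 95% intervals and filled points where the adjusted p was under 0.05. Keap1 is filled above 0, Gclc and Txnrd1 are filled below 0, and the bars of Nfe2l2, Gclm, Slc7a11 and G6pdx cross 0.

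A wider list, like the lists after it chosen with earlier results of these data known, held 35 further NRF2 target genes. With MS023, 19 of the 31 tested were higher and none was lower by limma (13.7% and 14.1% of all genes), with a median log2 fold change of 0.34. At an unadjusted p under 0.05, 1 was lower with MS023 and 0 with GSK3368715, and edgeR and DESeq2 called 0 lower with either. With GSK3368715, 10 of 31 were higher and none lower (5.16% and 4.47%), median 0.16, and in shPrmt1 7 of 30 were higher and 2 lower (7.5% and 7.17%), median 0.07. The knockdown count of 9 fell to 3 without shControl 1 and to 4 without shControl 3, and the GSK3368715 count of 10 to 4 without vehicle 3 and to 5 with only the groups compared in the fit. Gsta4, a glutathione transferase that clears lipid aldehydes, was higher in each comparison and in every alternative analysis. It read 89.8, 88.6 and 118 in shControl, 279, 287 and 251 in shPrmt1, 657.5, 596 and 628 with vehicle, 1538, 1575 and 1549 with MS023, and 1044, 1075 and 1037 with GSK3368715. No treated library overlapped its controls, and the log2 fold changes were 1.46 (adjusted p = 5.4e-04), 1.31 (1.9e-06) and 0.75 (2.4e-04) in shPrmt1, MS023 and GSK3368715. Gstm1, another glutathione transferase, changed by 0.66, 1.10 and 0.65, and Cat, the catalase that removes hydrogen peroxide, by 0.48, 0.61 and 0.27. Ptgr1, a reductase of lipid mediators, was also called in each, at 0.84, 0.84 and 0.53, on means of 25.4 and 45.9 normalized counts in shControl and shPrmt1. Its knockdown call was lost without any 1 of the 6 libraries, with no filter and with DESeq2 (adjusted p up to 0.149). It held in 7 of 15 alternatives. The GSK3368715 calls of Cat and Ptgr1 were also lost with only the groups compared, and that of Ptgr1 with no filter and with the replicate block. The Cat call with GSK3368715 was lost without vehicle 3 or GSK3368715 2 or 3, and the Ptgr1 call with GSK3368715 without vehicle 2 or 3 or GSK3368715 1 or 2 (adjusted p up to 0.070 and 0.095).

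MS023 raised the ferritin light chain gene Ftl1 by 0.93 on the log2 scale (adjusted p = 3.3e-05), the microsomal transferase Mgst1 by 1.46 (0.0048) and Osgin1, an oxidative stress growth inhibitor, by 1.05 (0.0012). Of these, Mgst1 was scarce, at means of 17.3 normalized counts with vehicle and 49.1 with MS023. Ftl1 has near-identical copies, of which Ftl1-ps1 matches 94.0% of its transcript and reached 1786 normalized counts, so its value is uncertain by what reads were shared. In shPrmt1 the aldehyde dehydrogenase Aldh3a1 fell by 1.10 on the log2 scale (from a mean of 82.3 to 37.0 normalized counts, adjusted p = 0.014), a call lost without shControl 1 (0.059). Between the compounds, 5 of 31 were lower with GSK3368715 and none was higher (0.2% and 0.315% of all genes), led by Gsta4 (-0.56), Ftl1 (-0.52) and Gstm1 (-0.45), and none was higher at an unadjusted p under 0.05 or by edgeR or DESeq2. That count fell to 1 or 0 without any 1 GSK3368715 or MS023 library, to 3 with no filter and to 1 with no trend, and was 12 with DESeq2.

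Among 15 partners and regulators of NRF2, the small MAF gene Maff was lower in all 3 comparisons. It read 651, 584 and 598 in shControl and 505, 423 and 483 in shPrmt1 (log2 fold change -0.38, adjusted p = 0.033), a call lost without shControl 1, 2 or 3 or shPrmt1 3 (adjusted p up to 0.1399). With vehicle it read 2377, 2348 and 2226, with MS023 1653, 1823 and 1759 (-0.41, adjusted p = 0.0027), and with GSK3368715 1594, 1908 and 1699.8 (-0.42, adjusted p = 0.0070). No treated library reached its controls. Palb2, a DNA repair protein that also binds KEAP1, fell in shPrmt1 (-0.73, adjusted p = 0.016), a call lost without shControl 1 or 2 (adjusted p up to 0.063). Sqstm1, whose p62 protein binds KEAP1 and is itself an NRF2 target, rose in shPrmt1 (0.40, adjusted p = 0.0035). In the inhibitor experiment its means were 27623 with vehicle, 30102 with GSK3368715 and 36492.5 with MS023. All MS023 libraries lay above all vehicle libraries, but Sqstm1 was not called with either inhibitor. MS023 raised Bach1 (0.33, adjusted p = 0.0077), a repressor at the same DNA element, and lowered Mafk (-0.32, adjusted p = 0.0086). In all, 1 rose and 2 fell of 13 tested in shPrmt1 (7.5% and 7.17% of all genes), 4 rose and 3 fell of 14 with MS023 (13.7% and 14.1%), and 0 rose and 2 fell by limma of 14 with GSK3368715 (5.16% and 4.47%, 2 higher at an unadjusted p under 0.05, 0 by edgeR and by DESeq2), with medians between -0.04 and 0.04. Without shControl 1 or 2 the knockdown count was 1, and without vehicle 1 or 3 or GSK3368715 1 or 3 that of GSK3368715 was 1.

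A further list held 19 antioxidant enzymes that NRF2 does not mainly set. Of 17 tested, 5 rose and 3 fell with MS023 (13.7% and 14.1% of all genes) and 2 rose and 1 fell with GSK3368715 (5.16% and 4.47%), with medians of 0.01 and 0.04. In shPrmt1 2 of 16 were called, both higher, where 14.7% of all genes were called, and the median was 0.04. The selenoprotein Msrb1, a methionine sulfoxide reductase, had the largest rise with either inhibitor (0.53 with MS023, adjusted p = 0.0010, and 0.40 with GSK3368715, adjusted p = 0.013). The second was lost without vehicle 3 (0.055). Of the 2 knockdown calls 0 were left without any 1 shControl library or shPrmt1 3 and 1 without shPrmt1 1. The 8 MS023 calls became 5 without MS023 1 or 2, and the 3 GSK3368715 calls became 0 without vehicle 3 and 1 without GSK3368715 2 or MS023 2. Slc7a11 is also an ATF4 target, and in a list of 14 ATF4 and stress genes 7 of 13 tested fell with MS023 and none rose (14.1% and 13.7% of all genes), with a median of -0.27. Among them were Shmt2, which turns serine into glycine and one-carbon units, at -0.43 (adjusted p = 0.0047), Asns, the asparagine synthetase, at -0.39 (adjusted p = 0.0033) and Phgdh, the first enzyme of serine synthesis, at -0.34 (adjusted p = 0.0052). Near-identical copies of Phgdh reached up to 2238 normalized counts, so its value is uncertain by the reads they share. Atf4 itself was not among the genes called with MS023, at means of 44187 with vehicle and 41778 with MS023. The part of ATF4 in the Slc7a11 level was not tested. In shPrmt1 3 of 13 fell (7.17% of all genes), led by Ddit4 (-0.68, adjusted p = 0.0016), an inhibitor of mTORC1, and the median was -0.10. The count was 1 without any 1 shControl library and 5 without shPrmt1 2. With GSK3368715 limma called 0 of 13 (4.47% of all genes were lower; 3 of the list lower at an unadjusted p under 0.05, 0 by edgeR and 2 lower by DESeq2), or 2 without vehicle 2, and the median was -0.11. At an unadjusted p under 0.05 none of the 13 was higher in any of the 3 comparisons, nor by edgeR or DESeq2 after adjustment.

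**Figure D5:**
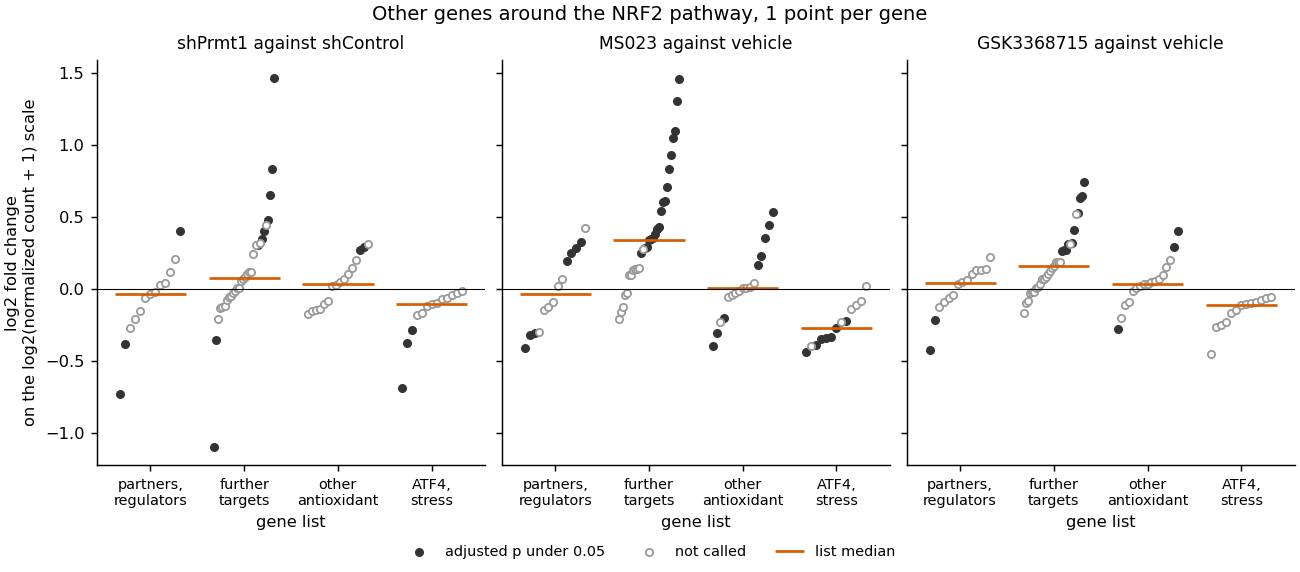
Log2 fold change (vertical axis, log2(normalized count + 1) scale) of each tested gene of the 4 other lists (horizontal axis) in the 3 comparisons with a control, 1 point per gene, filled where the adjusted p was under 0.05, with a line at the list median. The further NRF2 targets have a median of 0.34 with MS023, 0.16 with GSK3368715 and 0.07 in shPrmt1, and the ATF4 and stress genes of -0.27, -0.11 and -0.10.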

How the data were processed

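RNA-seq libraries of CT26 cells were prepared with a poly(A) kit and sequenced in pairs. According to the submitters' processing notes and the study's methods, the authors quantified reads with Salmon 1.4.0 on mm10 and normalized with DESeq2. The deposited signal is gene read counts divided by DESeq2 size factors, in a table for each experiment, and 100% of values came out as whole reads (tolerance 0.01) once multiplied back. Tables of the authors' own fold changes and p-values were not used. Strand use in counting is not given in the sources used here.

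Every gene that reached 10 normalized counts in 3 or more libraries of a fit was tested with limma 3.58.1 (R 4.3.3, lmFit, eBayes with trend, two-sided) on log2(normalized count + 1), a scale that understates changes of low genes, in 6 knockdown libraries and, in a single fit, 9 inhibitor libraries. P-values were Benjamini-Hochberg adjusted over all genes tested, threshold 0.05. The fit was tested on simulated data with 200 changed genes. Alternatives were pseudocounts of 0.5 and 5, no filter or a minimum of 50, equal totals or upper quartiles, no trend, a replicate block, only the groups compared, edgeR 4.0.16 and DESeq2 1.42.0 on the recovered reads, and leaving out each library; applying them to the other lists was chosen after seeing the data. The members and lists were chosen with earlier results of these data known. All 10 members are named. Of the other lists at most the 5 largest called genes per comparison are named, plus those called in all 3 comparisons with a control.

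Exon lengths, overlaps and copies (blastn 2.17.0, at least 95% identity over 30% of the longest transcript) came from GENCODE M21, and promoters from RefSeq. No 2 libraries were duplicates. Replicate numbers were not taken to pair samples, since the labels tie them to no shared origin and not every same-numbered pair had deviations correlated above 0.1. That cut does not separate the experiments. In the knockdown all same-numbered pairs (0.06 to 0.12) exceeded all others (-0.09 to 0.03), and in the inhibitor experiment they did not.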

Additional observations from a re-analysis of the deposited data

Results flagged for a closer look

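Nqo1 lay on opposite sides of its controls in the experiments: all 3 shPrmt1 libraries were below all shControl libraries (log2 fold change -0.39, adjusted p = 0.348), while all MS023 libraries and all GSK3368715 libraries were above all vehicle libraries (1.02 and 0.54). The difference between the experiments was not tested, and the knockdown value rests on 13.7 to 23.0 normalized counts per library.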

How the results depend on the processing

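The 8 MS023 calls held in all 20 alternatives. In the knockdown, the 4 calls became 2 with no trend and 1 to 5 on leaving out a library, and Keap1 was also lost with equal totals (adjusted p = 0.054). For GSK3368715 the 2 calls became 1 with no filter, 1 with the replicate block, 4 with equal totals, 5 with DESeq2, 0 with only the groups compared and 0 to 2 on leaving out a library. Between the compounds the 3 calls became 1 with no filter, 0 with no trend, 0 with the replicate block, 5 with DESeq2 and 0 to 4 on leaving out a library, and the Nfe2l2 difference of 0.01 turned to -0.0097 with equal totals and lay between -0.0068 and 0.0396 on leaving out a library (below 0 without GSK3368715 2, GSK3368715 3 or MS023 3). Other directions of members held in every alternative. The cause of these changes was not tested. The Keap1 difference between the compounds was also lost with equal totals (adjusted p = 0.065), equal upper quartiles (0.054) and only the groups compared (0.057), and held in 7 of 20 alternatives. Deviations of same-numbered libraries correlated at 0.06 to 0.12 in the knockdown (different numbers -0.09 to 0.03, each library best with its own number, a hint from the data and not the design) and at -0.10 to 0.11 in the inhibitor experiment (different numbers -0.13 to 0.17). Under the replicate block Nfe2l2 passed in the knockdown (adjusted p = 0.041), and the 5 further targets called between the compounds became 0. With a minimum of 50 Nqo1 had no value in the knockdown. Over all genes, leaving out a library took the knockdown count from 1684 to as few as 652, that of MS023 from 3625 to 2409, that of GSK3368715 from 1254 to 586 (597 with only the groups compared) and that between the compounds from 67 to between 2 and 114. The replicate block gave 2671 in the knockdown and 4 between the compounds, where no filter gave 38, no trend 8 and DESeq2 377.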

Other observations

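The ratio of Keap1 to Nfe2l2 normalized counts, chosen after its values were seen, was 0.4497 ± 0.0164 in shControl and 0.297 ± 0.0614 in shPrmt1, and 0.403 ± 0.0236 with vehicle, 0.282 ± 0.0189 with MS023 and 0.345 ± 0.0170 with GSK3368715 (SD, n = 3, exact permutation test of each treated group against its controls, two-sided p = 0.1, the smallest that 3 against 3 can give). The ratio of Gclc to Gclm, chosen likewise, was 0.398 ± 0.0318 in shControl and 0.474 ± 0.0167 in shPrmt1 (exact permutation p = 0.1), 0.476 ± 0.0512 with vehicle, 0.579 ± 0.0573 with MS023 (exact permutation p = 0.2) and 0.514 ± 0.0332 with GSK3368715 (exact permutation p = 0.3).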
